A study of Mus musculus with 6 samples.

Results

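H3K27ac, the acetylation of histone H3 at lysine 27 that is found at promoters and enhancers in use, was described here at the Malat1 and Neat1 noncoding RNA genes of the mouse. Malat1 and Neat1 are neighbouring genes for long RNAs that stay in the nucleus. Malat1 RNA gathers in nuclear speckles, which hold splicing factors, and the long form of Neat1 RNA is the scaffold on which paraspeckles assemble around RNA-binding proteins. Both genes are transcribed in many cell types, and in macrophages both RNAs have been studied for their part in inflammatory responses. The members are all called H3K27ac peaks that overlap the 85 kb window chr19:5820000-5905000 of mouse build mm39. The window was picked with called peaks of these data in view, so the peaks in it are a description and not a test. It held 27 of the 79419 peaks in the 3 lists of the study, 8 of them from wild-type cells, 10 from Bmal1 knockout cells and 9 from Mfp2 knockout cells.

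The cells were RAW264.7, a macrophage-like mouse line, either wild type (WT, called naive in the sample titles), Bmal1 knockout (Bmal1KO) or Mfp2 knockout (Mfp2KO), and no stimulus is stated for any of them. BMAL1 is a transcription factor at the centre of the circadian clock and MFP2 is an enzyme of peroxisomal β-oxidation. Each genotype had 1 ChIP library, made with an H3K27ac antibody, and 1 input library without antibody. Since no genotype was replicated, there is no spread between replicates and no test, and whether a knockout line is 1 clone is not stated in the labels. Each difference below is therefore one between these libraries. Its 95% interval comes from the numbers of tags and covers counting error only, treating tags as independent molecules.

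The unit throughout is the authors' normalized tag count, that is the ChIP tags of a peak per 10 M tags of its library, called tags below. Depth was 15.8 M ChIP tags in WT, 12.5 M in Bmal1KO and 15.8 M in Mfp2KO, and the deposited headers put 38.71%, 37.35% and 57.15% of them in peaks. Over all regions called in both lists the median log2 ratio of tags to WT was -0.25 in Bmal1KO (17614 regions) and 0.43 in Mfp2KO (16682 regions). Ratios at the locus are given as measured and again relative to these medians. A lower tag count from fewer acetylated cells cannot be told apart from less acetylation per cell. The labelled cell type and the knocked-out genes were not checked here, because no gene annotation of mm39 was used.

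Malat1 lies near 5845700-5852700 and Neat1 near 5874000-5896000. These spans are approximate. In RefSeq Malat1 is on the minus strand, so its transcription starts at the upper end of its span. Neat1 is known to be read in the same direction. The stretch between the genes is thus upstream of Malat1 and downstream of Neat1. The RefSeq promoter of Malat1 is printed because the start of Malat1 lay inside the longest H3K27ac peak of the window in all 3 lists. The sequence runs from 250 bases before the start to 50 after it, on the minus strand at chr19:5802623-5802922 of build GRCm38.p6, which is another build than that of the peaks. Capitals mark the match to GAGGAA, the core that the macrophage factor PU.1 binds.
Malat1 promoter: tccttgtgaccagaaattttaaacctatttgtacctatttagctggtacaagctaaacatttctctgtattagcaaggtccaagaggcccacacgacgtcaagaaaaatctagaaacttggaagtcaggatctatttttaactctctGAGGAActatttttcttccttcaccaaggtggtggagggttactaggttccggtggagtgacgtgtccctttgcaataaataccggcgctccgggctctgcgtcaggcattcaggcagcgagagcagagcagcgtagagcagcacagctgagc

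Both strands of this window were searched for 4 motifs. GAGGAA occurred once, at base 148 from the 5′ end, and is held by 28.3% of the 32851 promoters of the same length in RefSeq. The E-box CACGTG, the sequence that BMAL1 binds with its partner CLOCK, had no match and is held by 7.15% of them. TGACTCA (AP-1) and the NF-kB motif, searched with 3 free positions, had no match either, and are held by 5.20% and 4.59%. These are letter matches in 1 short window and say nothing of binding. The share of G and C was 47% against a median promoter of 52.7%.

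In every genotype, 2 long H3K27ac peaks held most of the tags in called peaks of the window. One covered the start of Malat1 and most of the stretch upstream of it, and the other covered the upper end of Neat1, where its transcription starts, and the sequence beyond. Together they held 86.7% of these tags in WT, 82.9% in Bmal1KO and 86.3% in Mfp2KO. Tags outside called peaks were not counted. The largest of the remaining peaks were a compact one at the lower edge of the window and, in Mfp2KO, one of 4095 bp with 194.5 tags between the long peaks.

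**Figure D1:**
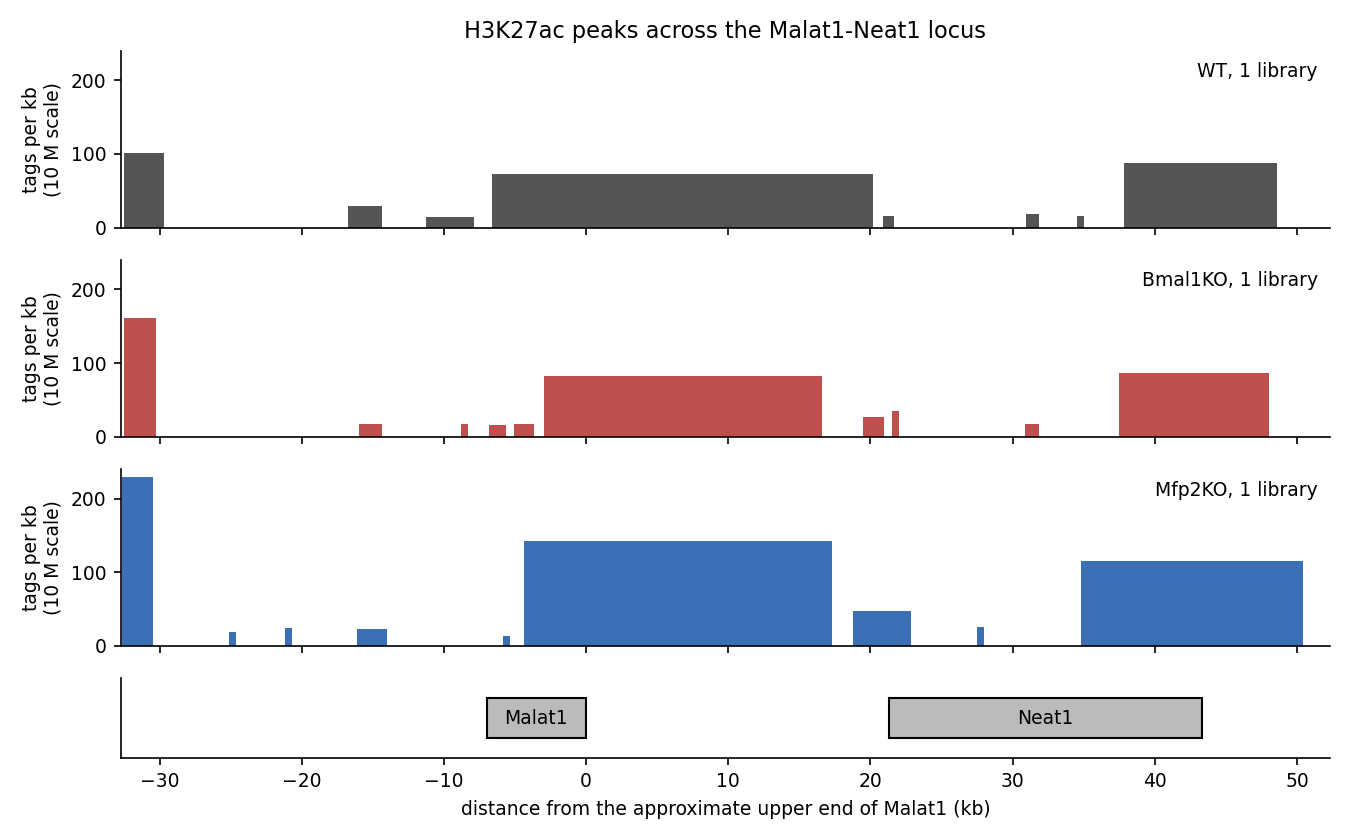
H3K27ac peaks of the 3 lists along the window. The x axis is the distance in kb from the approximate upper end of Malat1, the y axis is tags per kb on the scale of 10 M tags per library, each bar spans 1 called peak, and the grey boxes are the approximate gene spans. The long peak over the start of Malat1 runs for 26.8 kb in WT, 19.5 kb in Bmal1KO and 21.7 kb in Mfp2KO.

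The Malat1-side peak was among the longest of each list. In WT it spanned chr19:5846087-5872879, 26792 bp, with 1959.1 tags (95% Poisson interval 1891 to 2029). In Bmal1KO it spanned chr19:5849752-5869263, 19511 bp, with 1597.6 tags (1528 to 1669). In Mfp2KO it spanned chr19:5848350-5870024, 21674 bp, with 3092.2 tags (3006 to 3181). By tags the order was Mfp2KO, WT, Bmal1KO, with intervals that did not overlap, whereas by length WT came first. It was the 9th longest of 29276 peaks in WT, the longest of 25666 in Bmal1KO and the 2nd longest of 24477 in Mfp2KO. By tags it ranked 20th, 48th and 19th.

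Most of this peak was not over the Malat1 gene itself. In WT 6613 bp lay in the span of Malat1 and 20179 bp between the genes, where it ended 1.12 kb short of Neat1. In Bmal1KO the same peak had 2948 bp in Malat1 and 16563 bp between the genes, and in Mfp2KO 4350 and 17324 bp. Both knockout peaks lay within the WT one. The lower edge, over the 3′ part of Malat1, was 3665 bp further in for Bmal1KO and 2263 bp for Mfp2KO, and the upper edge 3616 and 2855 bp further in.

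Parts of the sequence that WT joined into this single peak were called as separate pieces in the knockouts. In Bmal1KO, peaks of 1192 bp with 18.3 tags (chr19:5845847-5847039) and of 1392 bp with 24.3 tags (chr19:5847616-5849008) lay over Malat1, and a peak of 1500 bp with 41.1 tags (chr19:5872155-5873655) lay across the upper edge of the WT peak. Another of 500 bp with 17.2 tags (chr19:5874184-5874684) lay beyond that edge, just within Neat1. In Mfp2KO a peak of 500 bp with 6.97 tags (chr19:5846833-5847333) lay over Malat1, and a peak of 4095 bp with 194.5 tags (chr19:5871473-5875568) ran from the stretch between the genes into Neat1. WT had 1 further small peak there, of 786 bp with 12.7 tags (chr19:5873570-5874356). At 47.5 tags per kb the Mfp2KO piece of 4095 bp was denser than the other pieces, which had 13.9 to 34.4.

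Relative to WT the tags of the Malat1-side peak were at 0.815 times in Bmal1KO, a log2 ratio of -0.29 (-0.38 to -0.21), and at 1.58 times in Mfp2KO, a log2 ratio of 0.66 (0.59 to 0.72). Relative to the median region the ratios were -0.05 and 0.23, so that in Bmal1KO the difference was close to that of the median region. With the pieces added back, the joined region (chr19:5845847-5875568) held 1971.8 tags in WT, 1698.5 in Bmal1KO and 3293.7 in Mfp2KO. Its log2 ratio was -0.22 in Bmal1KO (-0.30 to -0.14) and 0.74 in Mfp2KO (0.68 to 0.80), or 0.03 and 0.31 relative to the median region. Of all regions called in both lists, 51.2% had a lower ratio in Bmal1KO and 60.1% in Mfp2KO. Its ratio to WT was thus near the middle of the list in each knockout, and in Bmal1KO it is below 1 as measured but not relative to the median region.

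Density moved differently from total tags. The Malat1-side peak had 73.1 tags per kb in WT, 81.9 in Bmal1KO and 142.7 in Mfp2KO. The Bmal1KO peak was therefore 1.12 times as dense as that of WT over 72.8% of its length. The Mfp2KO peak was 1.95 times as dense over 80.9% of the length. With the pieces added back, the joined region had 71.5 tags per kb in WT, 70.5 in Bmal1KO and 125.4 in Mfp2KO. The higher density in Bmal1KO thus held for the long peak as called and not for the joined region. Enrichment over input in the authors' deposited columns was 11.74-fold, 13.38-fold and 21.02-fold. The authors' peak score was low for a peak of so many tags, at 12, 14 and 11, which is above 24.8%, 61.2% and 8.92% of the peaks of each list.

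The Neat1-side peak had nearly the same extent in WT and Bmal1KO and was longer in Mfp2KO. In WT it spanned chr19:5890552-5901265, 10713 bp, with 935.9 tags (889 to 985). In Bmal1KO it spanned chr19:5890195-5900745, 10550 bp, with 910.7 tags (859 to 966), and in Mfp2KO chr19:5887501-5903120, 15619 bp, with 1811.1 tags (1745 to 1879). WT and Bmal1KO overlapped in their intervals and Mfp2KO was above both. By tags the peak ranked 305th in WT, 416th in Bmal1KO and 146th in Mfp2KO, and by length it was the 38th in Bmal1KO and the 8th in Mfp2KO.

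The peak sat on both sides of the start of Neat1. In WT 5448 bp lay inside the gene and 5265 bp beyond it, in Bmal1KO 5805 and 4745 bp, and in Mfp2KO 8499 and 7120 bp. The Mfp2KO peak began 3051 bp further into Neat1 than that of WT and ended 1855 bp further out. The part inside overlapped, but did not fully cover, a separate WT peak of 500 bp with 7.60 tags (chr19:5887213-5887713), which had no Bmal1KO counterpart. Both edges in Bmal1KO were within 520 bp of WT.

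The tags of the Neat1-side peak were at 0.973 times WT in Bmal1KO, a log2 ratio of -0.04 (-0.15 to 0.07), not distinguishable from no difference at this depth. Relative to the median region the value was 0.21. In Mfp2KO they were at 1.94 times WT, a log2 ratio of 0.95 (0.86 to 1.04), or 0.52 relative to the median region. For the joined region (chr19:5887213-5903120) 58.3% of regions had a lower ratio in Bmal1KO and 67.0% in Mfp2KO. Density was 87.4 tags per kb in WT, 86.3 in Bmal1KO and 116.0 in Mfp2KO, and enrichment over input was 13.50-fold, 16.32-fold and 23.33-fold.

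**Figure D2:**
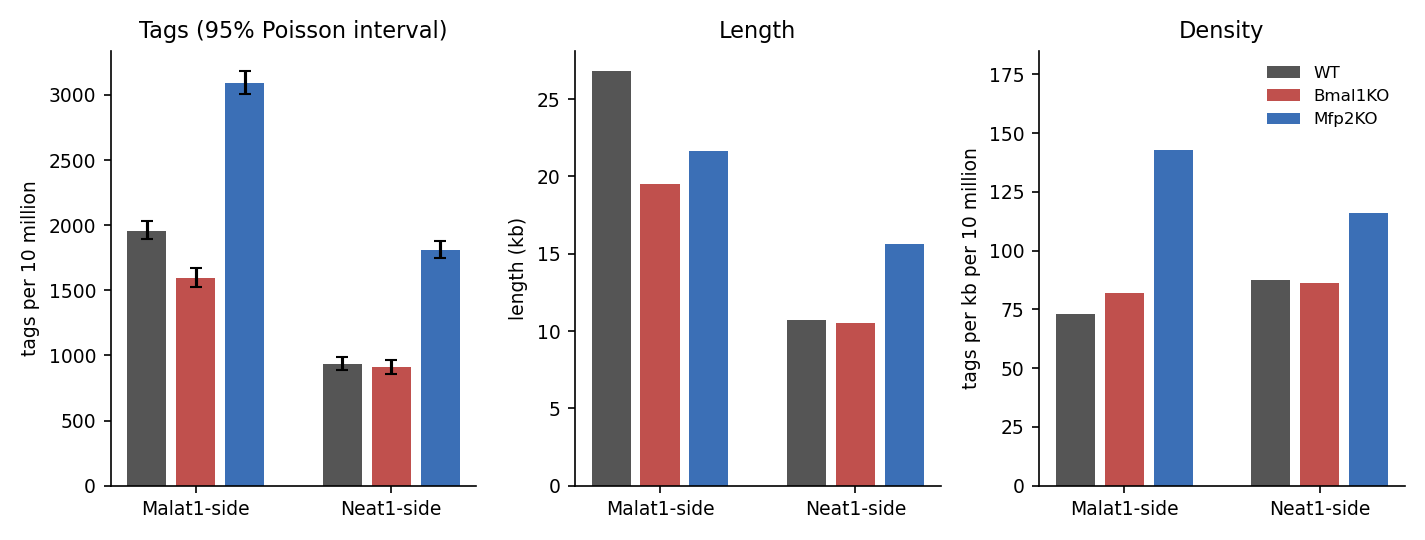
The 2 long peaks in each genotype, with bars for tags per 10 M (error bars are 95% Poisson intervals of 1 library), length in kb and tags per kb. At the Malat1 side WT is longest with 26.8 kb, while at the Neat1 side Mfp2KO is longest with 15.6 kb, and Mfp2KO has the most tags at both.

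The Malat1-side and Neat1-side peaks were also set against each other within each library, which needs no scaling between libraries. The Malat1-side peak held 2.09 times the tags of the Neat1-side peak in WT (exact binomial interval 1.97 to 2.23), 1.75 times in Bmal1KO (1.63 to 1.89) and 1.71 times in Mfp2KO (1.63 to 1.79). These ratios leave out the pieces that the knockouts called apart from the Malat1-side peak. On the joined regions, which include them, the ratios were 2.09 in WT (1.96 to 2.22), 1.87 in Bmal1KO (1.73 to 2.005) and 1.82 in Mfp2KO (1.74 to 1.90). On that measure the Bmal1KO interval overlapped that of WT and the Mfp2KO interval lay below it. The called lengths of the long peaks stood at 2.50, 1.85 and 1.39 times. Per kb the Malat1-side peak had 0.837 times the density of the Neat1-side peak in WT, 0.949 times in Bmal1KO and 1.23 times in Mfp2KO. These lengths and densities leave out the pieces too. The joined regions were 27.6 against 11.2 kb long in WT, 24.1 against 10.6 kb in Bmal1KO and 26.3 against 15.6 kb in Mfp2KO. Their densities were 71.5 against 84.1 tags per kb in WT, 70.5 against 86.3 in Bmal1KO and 125.4 against 116.0 in Mfp2KO. On the joined regions the density ratio in Bmal1KO was thus not above that of WT. The sequence between the ends of both long peaks was 17.7, 20.9 and 17.5 kb long.

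Along the window, peaks covered most of Malat1 and of the stretch upstream of it and less of Neat1. Of the 7 kb of Malat1, 94.5% lay in peaks in WT, 79.0% in Bmal1KO and 69.3% in Mfp2KO. Of the 21.3 kb between the genes, the shares were 96.8%, 84.8% and 93.2%. Of the 22 kb of Neat1, 32.9%, 33.1% and 48.0% were covered, and 46% had no peak in any list. The 9 kb above Neat1 were covered for 58.5%, 52.7% and 79.1%. In the 25.7 kb below Malat1 the shares were 33.8%, 16.9% and 20.5%. WT thus had the largest called share in Malat1, between the genes and below Malat1, and Mfp2KO in Neat1 and above it.

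**Figure D3:**
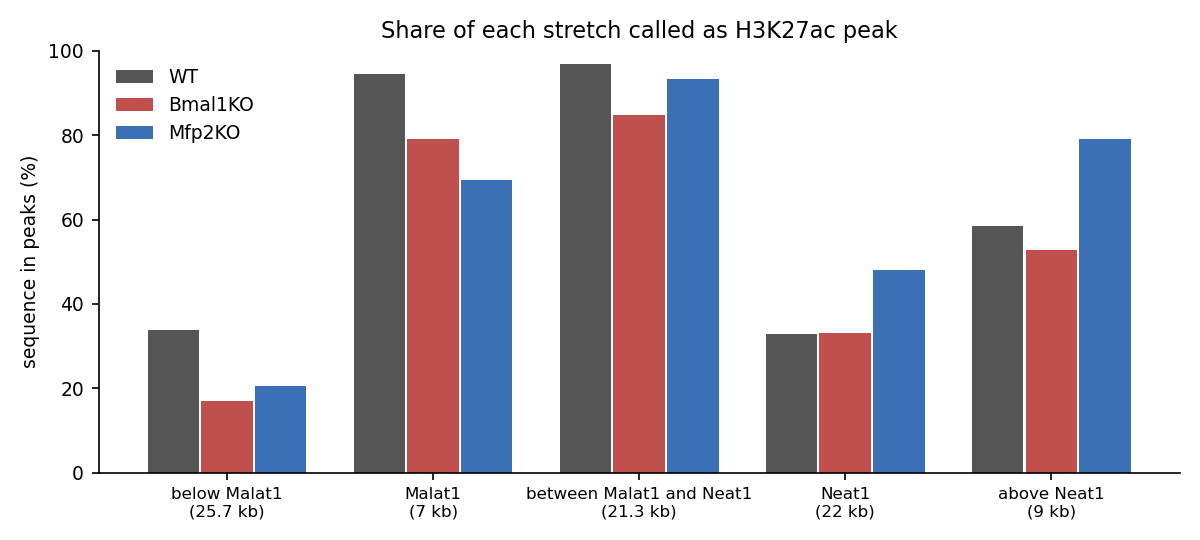
Share of each stretch of the window called as peak, in percent of its length, for WT, Bmal1KO and Mfp2KO (1 library each). Between Malat1 and Neat1 all bars are above 84%, and over Neat1 none reaches 50%.

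Peaks of the 3 lists that overlapped were joined into 9 regions, numbered from the lower end of the window. Of these, 4 were called in all lists, 2 in WT and Bmal1KO, and 3 in Mfp2KO alone. Of all 39754 joined regions of the study, 37.2% were called in all lists and 48.9% in 1 list. Among the 8 WT peaks of the window 1 had no Bmal1KO peak, where 38.9% of all WT peaks had none, and 2 had no Mfp2KO peak, against 41.4%. Of the 10 Bmal1KO peaks 0 lacked a WT peak, against 23.6%, and of the 9 Mfp2KO peaks 3 did, against 25.4%. Between the knockouts, 3 of the 9 Mfp2KO peaks had no Bmal1KO peak, against 32.1%, and 2 of the 10 Bmal1KO peaks had no Mfp2KO peak, against 34.6%. The window was chosen on called peaks, so nothing is read from these shares.

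Region 1, a compact peak at the lower edge of the window and away from both genes, had 289.1 tags in WT (chr19:5820192-5823046), 365.8 in Bmal1KO (chr19:5820174-5822445) and 495.2 in Mfp2KO (chr19:5820068-5822230). It was the densest peak of the window in each list, with 101, 161 and 229 tags per kb. The log2 ratio to WT was 0.34 in Bmal1KO (0.15 to 0.53) and 0.78 in Mfp2KO (0.61 to 0.94), or 0.59 and 0.35 relative to the median region. Its tags were above WT in both knockouts, on a shorter called length of 2271 and 2162 bp against 2854 bp. Its input was above WT too, at 9.91 tags per kb in WT, 15.7 in Bmal1KO and 18.2 in Mfp2KO, and enrichment over input was 10.23-fold, 10.26-fold and 12.57-fold. The part of input in the tag ratios was not tested. Which gene it belongs to was not analysed here.

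Regions 4 and 5, weak regions below Malat1, had fewer tags than WT in each knockout that called them. Region 4 had 70.3 tags in WT (chr19:5835940-5838371), 27.1 in Bmal1KO (chr19:5836743-5838312) and 47.8 in Mfp2KO (chr19:5836611-5838721). Its log2 ratio was -1.38 in Bmal1KO (-1.97 to -0.81) and -0.56 in Mfp2KO (-1.01 to -0.13), or -1.13 and -0.99 relative to the median region. Region 5, just past the 3′ end of Malat1, had 48.8 tags over 3408 bp in WT (chr19:5841410-5844818), 8.38 tags over 500 bp in Bmal1KO (chr19:5843903-5844403) and no peak in Mfp2KO. Its log2 ratio in Bmal1KO was -2.54 (-3.53 to -1.56), on peaks of 14.3 and 16.8 tags per kb, so that the lower total went with a shorter called length.

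The 4 further regions were small. Region 8, inside Neat1, had 16.8 tags in WT (chr19:5883642-5884579) and 16.4 in Bmal1KO (chr19:5883554-5884532), a log2 ratio of -0.03 (-0.92 to 0.85), and no Mfp2KO peak. The peaks found in Mfp2KO alone were each 500 bp long, the shortest length that any list holds. They had 9.51 tags (chr19:5827556-5828056), 12.4 tags (chr19:5831502-5832002) and 12.7 tags (chr19:5880164-5880664, inside Neat1). Their enrichment over input was 4.87-fold, 4.53-fold and 4.06-fold, near the 4-fold that the authors required. Absence of a peak in a list is not absence of the mark.

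At a limit of 2-fold, 2 of the 6 regions called in both WT and Bmal1KO were lower in Bmal1KO, regions 4 and 5, where 21.9% of all such regions were, and 0 were higher, against 5.49%. Of the 4 regions called in both WT and Mfp2KO, 0 were 2-fold lower, against 18.5%, and 0 were 2-fold higher, against 31.1%. Between the knockouts, 0 of 4 shared regions were 2-fold higher or lower in Mfp2KO, against 27.9% and 7.23%. The median log2 ratio of the regions was -0.13 in Bmal1KO and 0.76 in Mfp2KO, beside -0.25 and 0.43 over all regions. No test stands behind these counts.

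**Figure D4:**
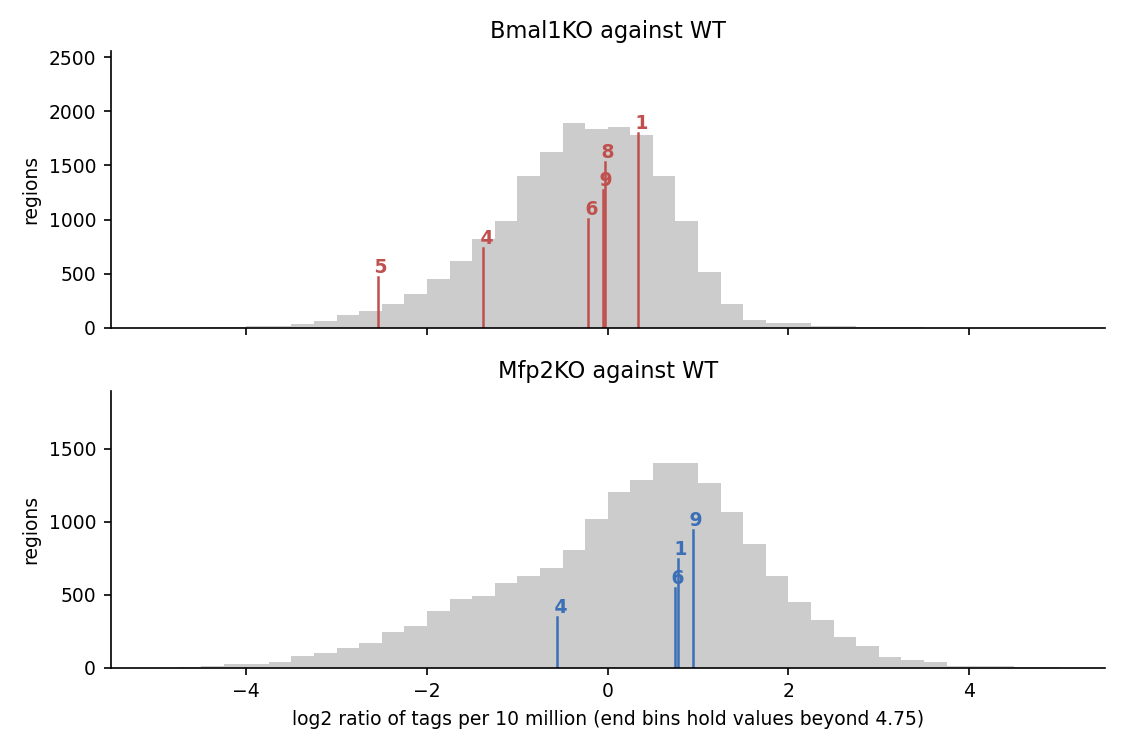
Histograms of the log2 ratio of tags per 10 M to WT over all regions called in both lists (x axis, log2 ratio; y axis, number of regions), with the regions of the window as numbered lines whose heights only separate the labels. In Bmal1KO regions 4 and 5 lie on the low side and the others between -0.22 and 0.34. In Mfp2KO region 4 lies at -0.56 and regions 1, 6 and 9 between 0.74 and 0.94.

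Summed over the called peaks of the window, tags were 3340.3 in WT, 3026.9 in Bmal1KO and 5682.4 in Mfp2KO, over 48.4, 40.0 and 47.7 kb. This is 69.0, 75.7 and 119 tags per kb. In Bmal1KO the log2 ratio of the sum was -0.14 (-0.20 to -0.08) as measured but 0.10 relative to the median region, so its direction depends on the scaling. In Mfp2KO it was 0.77 (0.72 to 0.82), and 0.34 relative to the median region. As a share of the tags in all peaks of its list, the window held 0.0863% in WT, 0.0810% in Bmal1KO and 0.0994% in Mfp2KO. Peaks within 2 kb of Malat1 held 2007.9, 1648.6 and 3099.2 tags, and those within 2 kb of Neat1 973.0, 985.4 and 2018.3 tags, each peak being counted with the gene whose span it shared most with. The log2 ratios were -0.28 (-0.37 to -0.20) and 0.63 (0.56 to 0.69) for Malat1, and 0.02 (-0.09 to 0.13) and 1.05 (0.96 to 1.14) for Neat1. As a share of the tags in all peaks of the list, the Mfp2KO ratios were smaller. They were 0.064 for Malat1 (-0.0005 to 0.13, which includes no difference) and 0.49 for Neat1 (0.40 to 0.58). By summed tags Neat1 thus had the higher ratio of both genes in each knockout. These sums count with Neat1 the pieces of 41.1 tags in Bmal1KO and 194.5 tags in Mfp2KO, which overlap the long Malat1-side peak of WT. On the joined regions the Malat1-side and Neat1-side intervals overlapped in Bmal1KO (-0.30 to -0.14 and -0.16 to 0.06) and did not in Mfp2KO (0.68 to 0.80 and 0.85 to 1.03). Per kb the order in Mfp2KO was the other way, with the long peaks at 1.95 times WT at the Malat1 side and 1.33 times at the Neat1 side. In Bmal1KO these values were 1.12 and 0.988. The joined regions kept the order of the long peaks per kb in Mfp2KO but not in Bmal1KO.

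Input tags over the long peaks differed little between genotypes, at 6.30 per kb in WT, 5.83 in Bmal1KO and 6.03 in Mfp2KO. For the joined Malat1-side region the log2 ratio of input per kb to WT was -0.09 in Bmal1KO and 0.09 in Mfp2KO, and for the joined Neat1-side region -0.25 and -0.34. At region 1 the same value was 0.66 in Bmal1KO and 0.88 in Mfp2KO. The part of input in the tag ratios of the window was not tested.

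Long acetylated domains of WT gave a scale for how much of each peak the knockouts still called. There were 325 WT peaks of 10 kb or more, which include both long peaks of the window. At the median such a domain, 65.6% was covered by Bmal1KO peaks (quartiles 50.2 to 78.6) and 61.1% by Mfp2KO peaks (40.9 to 78.9). The Malat1-side peak was covered for 84.3% by Bmal1KO peaks, with 46 of the 325 domains above it, and for 88.0% by Mfp2KO peaks, with 40 above it. The Neat1-side peak was covered for 95.1% by Bmal1KO peaks, with 7 above it. By Mfp2KO peaks it was covered for 100%, the highest value possible. Of the domains 98.8% were below that, and a few others reached it too. Both were also denser than most of these domains, as 80.9% and 88.9% of them had fewer tags per kb. The part of density in this coverage was not tested.

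**Figure D5:**
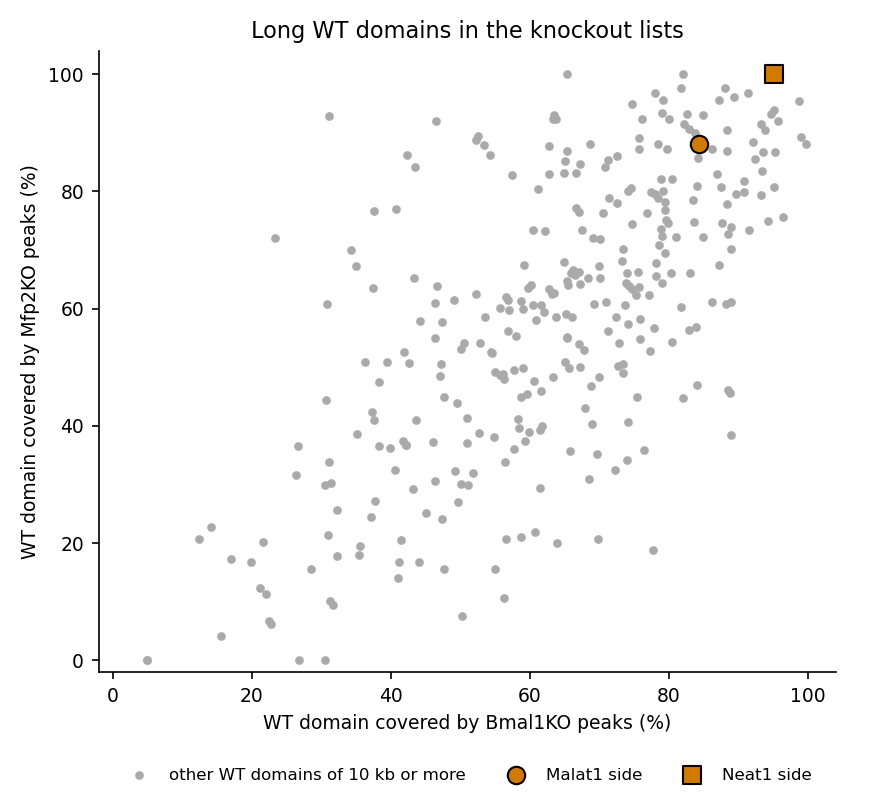
Each point is 1 of the 325 WT H3K27ac peaks of 10 kb or more, placed by the percentage of its length covered by Bmal1KO peaks (x axis) and by Mfp2KO peaks (y axis). The Malat1-side peak (circle, 84.3% and 88.0%) and the Neat1-side peak (square, 95.1% and 100%) lie in the upper right.

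Beyond the window both sides began with a gap. The last peak below it ended 18940 bp away in WT, 19124 bp in Bmal1KO and 20703 bp in Mfp2KO, with 7.92, 35.1 and 24.7 tags. The first peak above it began 18665, 19050 and 18034 bp away, with 271.3, 43.5 and 9.19 tags. The peaks just inside, regions 1 and 9, had 289.1 to 495.2 and 910.7 to 1811.1 tags. Over the 200 kb below the window, the median log2 ratio was 0.18 in Bmal1KO and 1.43 in Mfp2KO over 11 regions called in both lists. Over the 200 kb above it the medians were 0.34 over 9 regions and 0.78 over 8. Summed tags of the flanks were at log2 0.10 and 0.21 of WT in Bmal1KO and 1.16 and 1.15 in Mfp2KO. In the window the medians were -0.13 over 6 regions and 0.76 over 4, and the summed tags were at -0.14 and 0.77. The Mfp2KO median of the window was thus close to that of the upper flank, while its sum was lower. In the lower flank both the median and the sum were above those of the window. The sums take in peaks called in 1 list. The upper flank had 10 peaks in WT and 18 in Mfp2KO, and the lower flank 14 and 15. No difference between window and flanks was tested.

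Likeness was measured as the distance between log2 tags over the 3 libraries, among 14789 regions called in all lists. The region nearest to the joined Malat1-side region lay at chr17:84487133-84497589, at a distance of 0.15, with 1879.3, 1735.2 and 3008.5 tags in WT, Bmal1KO and Mfp2KO. Its called length was 9.97, 8.39 and 9.51 kb, against 27.6, 24.1 and 26.3 kb at Malat1, so similar tags lay on a shorter sequence. The next 4 were chr7:79672072-79684265, chr10:80969356-80984020, chr14:25457690-25479095 and chr5:123272470-123283812, at distances of 0.21 to 0.30. For the joined Neat1-side region the nearest was on the same chromosome below the window, at chr19:5771817-5782616, at a distance of 0.19, with 942.5, 826.1 and 1665.4 tags. The next 4 were chr10:98747974-98753115, chr16:11069514-11073366, chr6:108634597-108642753 and chr5:124611866-124622800, at 0.19 to 0.24. These distances rest on 1 library per genotype.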

How the data were processed

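H3K27ac ChIP and input libraries of 3 genotypes (6 libraries) were used as 3 peak lists, 1 per genotype and not pooled. Per the file headers, HOMER findPeaks was run by the authors with its histone setting, each ChIP against its own input. Windows of 500 bp were joined into regions, for which the authors set limits of 4-fold and a p-value of 1.00e-04 over input. Per the submitters' processing notes, the tools were HOMER 5.1, MACS3 3.0.3, Picard 3.4.0, SAMtools 1.23, BWA 0.7.19-r1273 and fastp 1.0.1, on build mm39, with no role stated. The deposited normalized tag count is a signal scaled by the authors to 10 M tags per library. The deposited fold over input is a ratio after depth scaling, and the deposited score (formula not given in the sources used here) served only to rank peaks within a list.

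Tags were compared as log2 ratios with exact conditional binomial intervals (SciPy 1.17.1), and peaks were joined where they shared at least 1 bp. The steps were tested on simulated data in which each region had 1 peak of the same length in each list. Peaks called in pieces or at different lengths were not simulated. The members, named regions (all peaks of the window, the nearest outside it, and the 5 regions nearest in tags to each gene's) and lists were chosen with earlier results of these data known. How a peak near both genes is assigned, the 2 kb margin, the domains of 10 kb or more, the ratio of the joined regions and the measures of coverage and input were chosen after the peaks were seen. Alternatives were 3 scalings, stricter enrichment, other margins and overlaps, and shared regions only. Gene lists and cell type markers planned for the study were not analysed here, since the gene table is of GRCm38.p6.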

Additional observations from a re-analysis of the deposited data

How the results depend on the processing

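Of 73 values recomputed under an alternative, 53 stayed within the interval of the value reported, or within 1.5 times for lengths and counts. For tags of the window in Bmal1KO against wild type (log2 -0.14), the direction turned to 0.10 relative to the median of regions called in both lists, and to 0.049 when the peak of most tags was left out of each list, an alternative chosen after seeing the data. In Mfp2KO (0.77) the window moved to 0.91 without that peak, to 0.82 with input subtracted, to 0.34 relative to the median region and to 0.20 as a share of the tags in peaks. Relative to the median region Malat1 moved to -0.038 in Bmal1KO and 0.20 in Mfp2KO, and Neat1 to 0.26 and 0.62. As a share of the tags in peaks, Mfp2KO moved to 0.064 at Malat1, with an interval that included no difference, and 0.49 at Neat1. By construction, that scale lowers all Mfp2KO values, as this library had more of its tags in peaks. At a fold over input of at least 6, 5 wild-type and 5 Mfp2KO peaks of the window were left, and at 8, 3 wild-type, 5 Bmal1KO and 5 Mfp2KO peaks. Margins of 0 or 5 kb around the genes changed no direction except for Neat1 in Bmal1KO (0.02), which was -0.043 without a margin. On the joined regions, also chosen after seeing the data, Mfp2KO moved to 0.74 at the Malat1 side and 0.94 at the Neat1 side, Neat1 in Bmal1KO was -0.051, and the Mfp2KO ratio of Malat1-side to Neat1-side tags (1.71) was 1.82. No paired analysis was possible because no result comes from a test and each genotype has 1 library. Depth limits the peaks of under 100 tags most, whose ratios have intervals of over 0.8 on the log2 scale.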

Other observations

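Over the 14789 regions called in all lists, input tags per kb had a median log2 ratio to wild type of 0.48 in Mfp2KO and -0.02 in Bmal1KO, whereas at the joined Malat1-side region the Mfp2KO value was 0.09 and at the joined Neat1-side region -0.34. Median input was 5.77, 5.82 and 8.43 tags per kb in wild type, Bmal1KO and Mfp2KO, and 6.30, 5.83 and 6.03 in the long peaks of the window. The input of the long peaks in Mfp2KO was thus below that library's median where wild type was above it.

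Among the regions of the study nearest in tags to the joined Neat1-side region, the first was 37.4 kb below the window, on the other side of the Malat1 gene. It had 10.2, 8.99 and 10.6 kb of peaks in wild type, Bmal1KO and Mfp2KO, against 11.2, 10.6 and 15.6 kb at Neat1.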
